A study of Mus musculus with 7 samples.

Results

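Transcription factors that set or maintain macrophage identity were followed in macrophages sorted from injured nerve. The set held 9 genes, chosen by symbol: Spi1, Runx1, Cebpa, Cebpb, Cebpd, Maf, Bhlhe40, Bhlhe41 and Id2. The deposited table lists 23361 genes, in which 8 of the 9 stand under their current symbol and Spi1 under its former symbol Sfpi1. All 9 passed the filter on low values and were among the 12858 genes tested.

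Myeloid cells acquire their identity through a small set of DNA-binding proteins. The ETS factor PU.1, encoded by Spi1, opens enhancers in macrophages together with factors of the C/EBP and RUNX families, and MAF factors are known for mature and anti-inflammatory gene programs. The bHLH repressors encoded by Bhlhe40 and Bhlhe41 are known from self-renewing tissue macrophages, while Id2 encodes an inhibitor that has no DNA-binding domain and captures E proteins.

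The RNASeq samples stem from wild-type mice of the inbred BALB/cJ strain, whose left sciatic nerve was cut and bridged with a conduit. Macrophages within the conduit (negative for lineage markers and positive for F4/80, CD14, CD11b and CD16/32) were collected on day 5 (3 libraries), day 14 (2 libraries) or day 28 (2 libraries) after repair, from different mice each time. Days 14 and 28 have fewer libraries here than the group size stated for the study. All groups share the strain and the injury, no uninjured nerve was among them, and the age and sex of these mice are not given in the sources used here. Neither is it given whether a library stems from 1 mouse or a pool, so the spread between libraries may be technical.

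Between 18027190 and 35247116 fragments were assigned to genes per library, and 13209 to 14047 genes had more than 3 fragments. The members had 434 to 45014 fragments in a library. All 7 markers of macrophages were detected in every library. Their summed level was 5188 to 5714 FPKM on day 5, 3489 to 4172 FPKM on day 14 and 3329 to 3785 FPKM on day 28. From day 5 to day 28, 3 of the 7 were called lower and 0 higher. Cd14 was the largest part of the sum, at 2635 to 3003 FPKM on day 5 and 1433 to 1799 on day 28. Csf1r did not fall, at 406 to 434 FPKM on day 5, 454 to 493 on day 14 and 423 to 470 on day 28. Mertk was 20 to 30.3 FPKM over all libraries. In such bulk samples fewer cells of a type and less RNA per cell cannot be told apart.

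Levels are given as FPKM (fragments scaled to transcript length and to library size), which allows genes of different length to be compared. Averaged over the 7 libraries, Cebpb was highest at 1042 FPKM (rank 59 among the 12858 genes), followed by Id2 at 480 (rank 175) and Spi1 at 419 (rank 208). Bhlhe40 at 167 (rank 530), Cebpa at 120 (rank 727) and Maf at 76 (rank 1087) were intermediate. Runx1 at 25.1 (rank 3056), Bhlhe41 at 17.3 (rank 4060) and Cebpd at 16.2 (rank 4241) were lowest, and the highest mean FPKM of a member was 64.4-fold the lowest. Of the 8 neighbouring pairs in this order, 4 had ranges that overlapped over the 7 libraries: Id2 and Spi1, Bhlhe40 and Cebpa, Runx1 and Bhlhe41, and Bhlhe41 and Cebpd. Bhlhe40 nevertheless exceeded Cebpa within each of the 7 libraries, whereas Bhlhe41 exceeded Cebpd in 4 of 7.

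**Figure D1:**
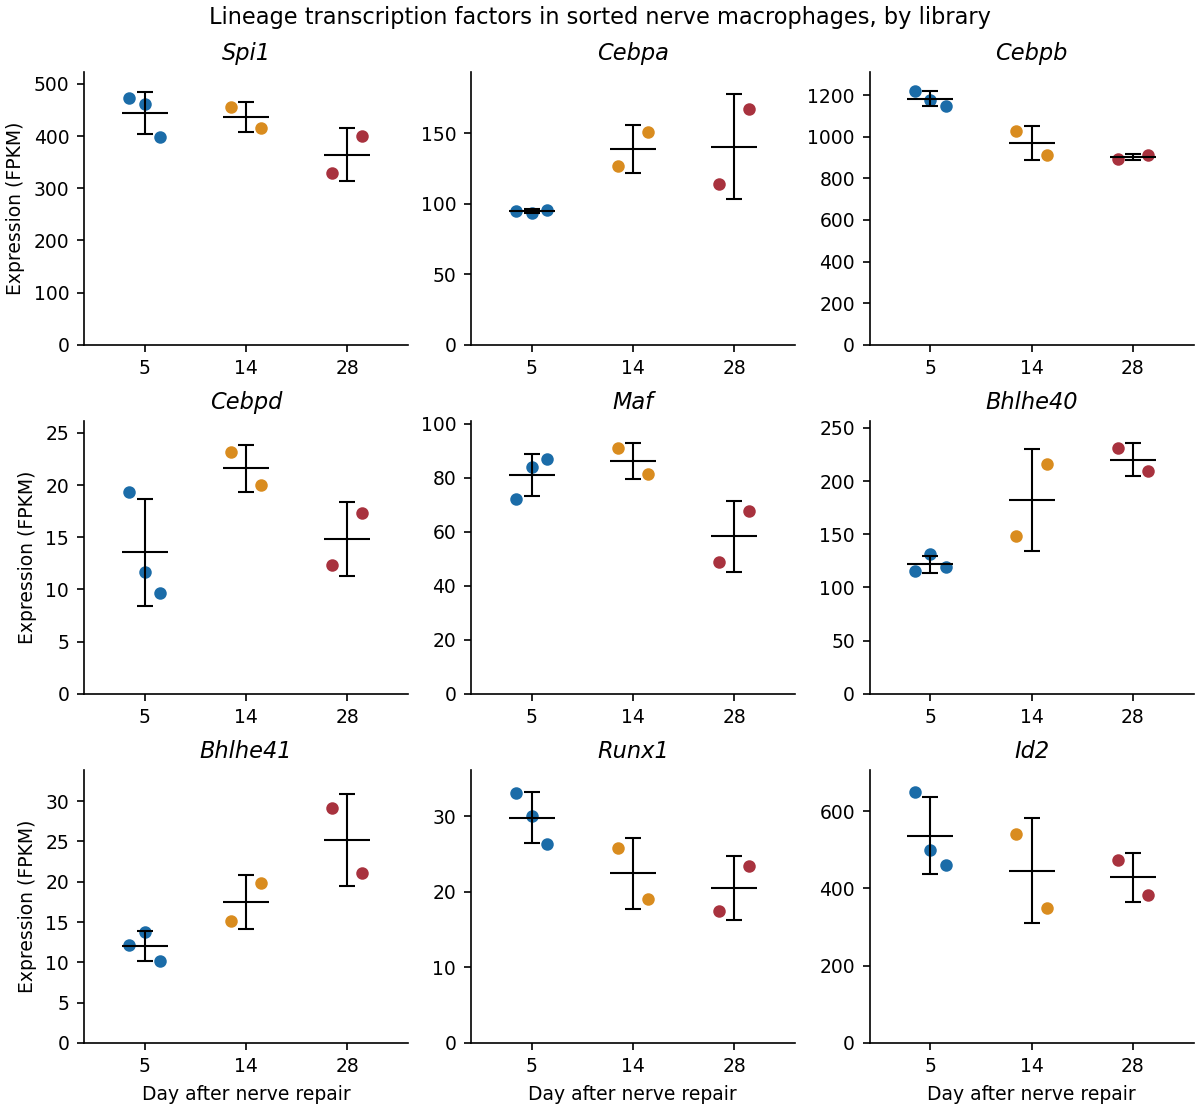
Expression in FPKM (vertical axes, linear from 0, scaled per gene) of the 9 factors on days 5, 14 and 28 after nerve repair; each point is 1 library, and bars show the mean and SD of 3, 2 and 2 libraries. The day 5 points lie below all later points for Cebpa, Bhlhe40 and Bhlhe41 and above all later points for Cebpb and Runx1.

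The question posed by the time course is which of these factors changed as the macrophages moved from the early to the late phase of repair. Changes are given as log2 fold changes, the later minus the earlier day, from 1 edgeR fit over all 7 libraries with standard errors (SE), 95% intervals and p-values adjusted over all genes tested. From day 5 to day 28, 3 of the 9 members were called at an adjusted p under 0.05, all higher (Cebpa, Bhlhe40 and Bhlhe41), where 15.2% of all genes were called (7.74% higher and 7.51% lower). An unadjusted p under 0.05 was reached by 6 members, against 31.5% of all genes. No member was called from day 5 to day 14, against 4.78% of all genes, although 6 of 9 had an unadjusted p under 0.05, against 24% of all genes. DESeq2 called 2 members in this comparison, Cebpa and Bhlhe40, where it called 10.6% of all genes, and edgeR without an expression filter called 4, against 8.26%. From day 14 to day 28 no member was called by edgeR or DESeq2, 0.0622% of all genes were called by edgeR and 2.58% by DESeq2, and 2 members had an unadjusted p under 0.05 in edgeR against 12.2%. In a single test for any difference among the 3 days, Bhlhe40 (adjusted p = 0.0223) and Bhlhe41 (adjusted p = 0.0179) were called, where 11.4% of all genes were.

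These counts moved with the settings in both directions. Between days 5 and 28 DESeq2 called 6 members, with Cebpb, Maf and Runx1 lower, against 19.3% of all genes, the fit on these 2 time points alone called the same number against 22.1%, and the fit without an expression filter 5 against 14.3%. Fewer were called by limma on FPKM (2 with either pseudocount, against 14% and 13.6% of all genes). Without day 5 replicate 1, 2 or 3 it was 2 each time, against 6.42%, 7.17% and 7.57% of all genes. Without day 28 replicate 1 the estimates were 0.83 for Cebpa, 0.79 for Bhlhe40 and 0.83 for Bhlhe41. A fit with an added term for the replicate number called none, against 5.72% of all genes. In the test for any difference DESeq2 and the unfiltered fit each called 6 members, against 19.3% and 14.5% of all genes. None was called without day 5 replicate 1 (3.27% of all genes), without day 5 replicate 3 (3.55%) or with the replicate term (2.29%).

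The set did not move in 1 direction. The median log2 fold change of the members was 0.10 from day 5 to day 14 (all genes tested, 0.027), -0.10 between days 14 and 28 (all genes, 0.009) and -0.27 over the whole period (all genes, 0.033). The libraries of days 5 and 28 did not overlap for 3 members that were higher and 3 that were lower on day 28, against 51.5% of all genes that did not overlap in either direction. For days 5 and 14 this held for 4 higher and 2 lower members against 43.2% of all genes. For days 14 and 28 it held for 1 higher and 3 lower members against 39%.

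**Figure D2:**
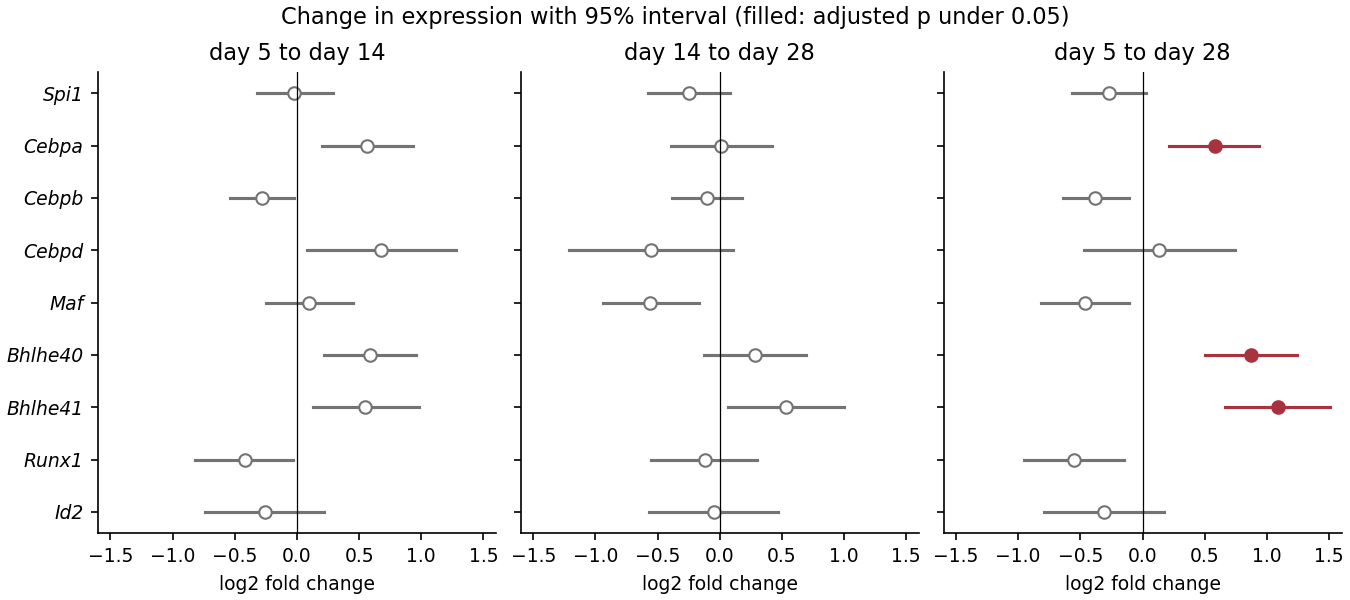
Log2 fold change (horizontal axis, later minus earlier day) of the 9 factors with 95% intervals, in 1 panel per pair of days; filled points have an adjusted p under 0.05. The 3 filled points are Cebpa (0.58), Bhlhe40 (0.87) and Bhlhe41 (1.09) from day 5 to day 28.

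Spi1 (ENSMUSG00000002111, GRCm38 chr2:91082390-91115756, plus strand) encodes PU.1. Its level was 472, 462 and 398 FPKM in the 3 day 5 libraries, 456 and 416 FPKM on day 14, and 329 and 400 FPKM on day 28. The first 2 time points overlapped, both day 14 libraries lay above both day 28 libraries, and the upper day 28 library was just above the lowest day 5 library. Means were 444 ± 40 (SD, n = 3), 436 ± 28.3 (SD, n = 2) and 365 ± 50.3 FPKM (SD, n = 2). The log2 fold change was -0.02 from day 5 to day 14 (95% interval -0.32 to 0.29) and -0.27 from day 5 to day 28 (95% interval -0.57 to 0.03, adjusted p = 0.205).

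Runx1 (ENSMUSG00000022952, chr16:92601466-92826149, minus strand), a partner of core-binding factor beta that is required for the onset of blood formation, was far less abundant. Its level was 33.1, 30.1 and 26.4 FPKM on day 5, 25.8 and 19.1 FPKM on day 14, and 17.5 and 23.5 FPKM on day 28. All day 5 libraries lay above all later ones, narrowly so for day 14, and days 14 and 28 overlapped. Means were 29.9 ± 3.37 (SD, n = 3), 22.4 ± 4.68 and 20.5 ± 4.3 FPKM (SD, n = 2 each). The log2 fold change from day 5 to day 14 was -0.42 (SE 0.18, adjusted p = 0.182). From day 5 to day 28 it was -0.55 (SE 0.18, 95% interval -0.95 to -0.15) and missed the threshold with an adjusted p of 0.0656. It passed in 5 of 15 alternative settings, over which the estimate ran from -0.77 to -0.36.

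The 3 C/EBP members are basic leucine zipper proteins that bind the same DNA element. C/EBP-alpha is needed for the step to granulocyte and macrophage progenitors, C/EBP-beta for activation of mature macrophages, and C/EBP-delta is known as an acute inflammatory gene. Cebpa (ENSMUSG00000034957, chr7:35119293-35121928, plus strand), Cebpb (ENSMUSG00000056501, chr2:167688915-167690418, plus strand) and Cebpd (ENSMUSG00000071637, chr16:15887286-15891031, plus strand) each consist of 1 exon. Their DNA-binding regions are so similar that it matters whether a read can be placed. The most alike coding stretches of 60 bases in Cebpa (chr7:35120292-35120351) and Cebpb (chr2:167689712-167689771), both within the exon on the plus strand of GRCm38, are shown from the GENCODE transcripts with capitals at the bases that differ:
Cebpa: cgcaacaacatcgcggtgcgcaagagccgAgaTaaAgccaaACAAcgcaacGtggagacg
Cebpb: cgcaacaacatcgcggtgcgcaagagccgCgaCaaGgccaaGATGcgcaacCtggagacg
They share 52 of 60 bases (86.7%). Over stretches of 75 bases, the shortest read length given before trimming, whole transcripts were compared on both strands. Reads could be shorter after trimming, and such lengths were not compared, although the stretches shown hold long runs without a mismatch. The fewest mismatches were 10 for Cebpa and Cebpb, 13 for Cebpa and Cebpd, and 6 for Cebpb and Cebpd.

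Cebpa was 94.8, 93.5 and 95.8 FPKM on day 5, 127 and 151 FPKM on day 14, and 114 and 167 FPKM on day 28. The 3 day 5 libraries were almost alike and lay below all 4 later ones, while days 14 and 28 overlapped. Means were 94.7 ± 1.15 (SD, n = 3), 139 ± 17 and 140 ± 37.6 FPKM (SD, n = 2 each). Cebpa rose 1.49-fold from day 5 to day 28, a log2 fold change of 0.58 (SE 0.16, 95% interval 0.21 to 0.94, adjusted p = 0.0426). The estimate was nearly as large by day 14 at 0.56 (SE 0.16, adjusted p = 0.0772), and from day 14 to day 28 it was 0.01 (95% interval -0.39 to 0.42). By day 14 it was 0.69 without day 14 replicate 1 and 0.43 without day 14 replicate 2. The call was the least firm of the 3: it held in 8 of 15 alternative settings. Without day 28 replicate 2 the log2 fold change from day 5 to day 28 was 0.27. Without day 5 replicate 1, 2 or 3 it was 0.58, 0.57 and 0.59 with adjusted p-values of 0.117, 0.123 and 0.105.

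Cebpb, the most abundant member, was 1219, 1178 and 1148 FPKM on day 5, 1029 and 912 FPKM on day 14, and 894 and 912 FPKM on day 28. Day 5 lay above both later days, which overlapped. Means were 1182 ± 35.6 (SD, n = 3), 971 ± 83 and 903 ± 13.3 FPKM (SD, n = 2 each). The log2 fold change was -0.28 by day 14 (SE 0.12, adjusted p = 0.188). By day 28 it was -0.38 (SE 0.12, 95% interval -0.64 to -0.11, adjusted p = 0.0585), and it ran from -0.39 to -0.35 over 15 alternative settings, of which 4 called it. Cebpb shares 312 exonic bases with Tmem189 on the opposite strand, and 16.71% of its stretches of 75 bases lie in that overlap. Tmem189 had 5653 to 10177 fragments and a log2 fold change of -0.18 (adjusted p = 0.44) over the same days. Whether strand was used in counting is not given in the sources used here, so that reads in the overlap cannot be assigned to 1 of the 2 genes with certainty.

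Cebpd was 19.3, 11.7 and 9.62 FPKM on day 5, 23.2 and 20 FPKM on day 14, and 12.3 and 17.3 FPKM on day 28. Both day 14 libraries were above all others, and day 28 lay within the range of day 5. Means were 13.5 ± 5.08 (SD, n = 3), 21.6 ± 2.22 and 14.8 ± 3.5 FPKM (SD, n = 2 each). The log2 fold change was 0.68 from day 5 to day 14 (SE 0.27, adjusted p = 0.16), -0.55 from day 14 to day 28 (SE 0.29, adjusted p = 0.491) and 0.13 from day 5 to day 28 (SE 0.27, adjusted p = 0.775). These were the widest errors in the set. The summed level of 8 neutrophil markers was also highest on day 14, at 333 to 356 FPKM on day 5, 585 to 599 on day 14 and 153 to 293 on day 28. This sum came mostly from S100a8 (161 and 218 FPKM on day 14) and S100a9 (334 and 295 FPKM on day 14). Csf3r was no higher on day 14, at 72.7, 66.6 and 67.1 FPKM on day 5 and 70.5 and 45.1 on day 14. Of the 8 markers 6 had over 3 fragments in every library. Cxcr2 was higher on day 14, at 5.31 and 6.5 FPKM, against 2.38 to 4.43 on day 5 and 1.7 to 2.1 on day 28. Retnlg was 28 and 17.7 FPKM on day 14 and 8.24 to 18.6 on day 5. The granule gene Ltf had 19 and 27 fragments on day 14 and 4 to 8 in every other library. The granule genes Ngp and Camp had no fragment in 6 and 4 of the 7 libraries, and Ngp had its 27 fragments in day 14 replicate 2. The sum of 5 fibroblast markers, all detected in every library, was 27.8 to 71.4 FPKM on day 5, 79.4 to 219 on day 14 and 34.5 to 55.9 on day 28. Cells bearing Ly6G, a granulocyte marker, or Thy1.2, used as a fibroblast marker, had been gated out in the sort. The part of either cell type in the Cebpd level was not tested. Cebpd also shares 562 exonic bases with Spidr, which is listed under an older name, on the opposite strand, and 13.07% of its stretches of 75 bases lie there. Spidr had 289 to 661 fragments and a log2 fold change of -0.42 from day 5 to day 14 (adjusted p = 0.234).

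The balance of Cebpa and Cebpb differed between the early and the later libraries. The ratio of Cebpb to Cebpa FPKM was 12.9, 12.6 and 12 on day 5, 8.1 and 6.04 on day 14, and 7.87 and 5.47 on day 28. All day 5 ratios lay above all later ones, while days 14 and 28 overlapped. Cebpa made up 7.11%, 7.29% and 7.64% of the summed FPKM of the 3 C/EBP members on day 5, 10.8% and 13.9% on day 14, and 11.1% and 15.2% on day 28, a mean difference of 5.83 percentage points between days 5 and 28. Without day 28 replicate 2 the difference was 3.80 points, without day 28 replicate 1 it was 7.87 points, and on raw fragments, which are not scaled to length, it was 9.07 points. Since every later library lay above day 5 for Cebpa and below it for Cebpb, the separated ratio follows from these levels. Ratios and shares are given as description, with no test.

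**Figure D3:**
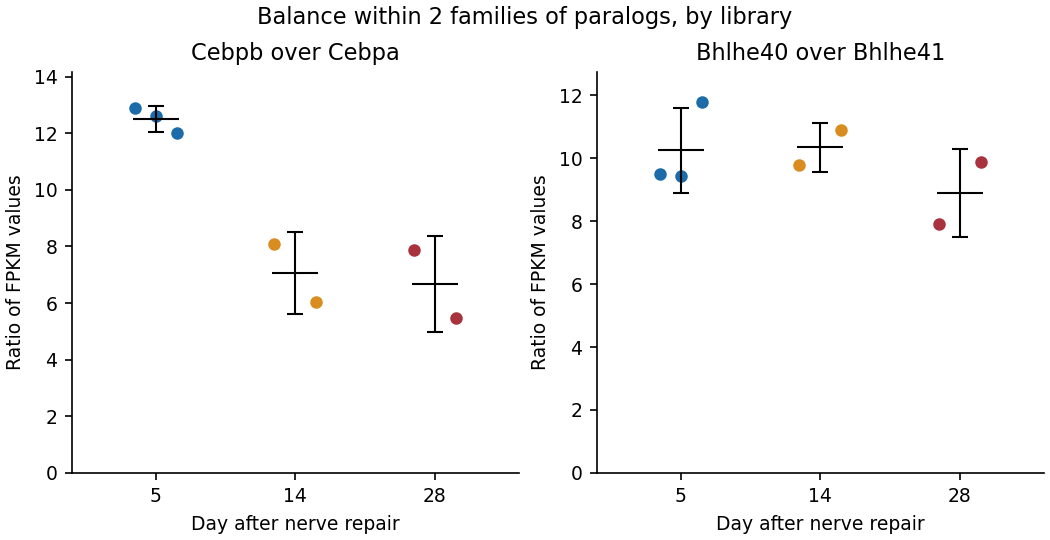
Ratio of FPKM values (vertical axes, linear from 0) of Cebpb over Cebpa and of Bhlhe40 over Bhlhe41 on days 5, 14 and 28 after nerve repair; points are single libraries, and bars show the mean and SD of 3, 2 and 2 libraries. The ratio of Cebpb to Cebpa was 12 to 12.9 on day 5 and 5.47 to 8.1 later, whereas the ratio of Bhlhe40 to Bhlhe41 overlapped between the 3 days.

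The 250 bases before the start of the same 2 genes are shown, since they are the pair whose balance differed, from RefSeq on GRCm38.p6, plus strand, with searched motifs in capitals. The Cebpa stretch is chr7:35119043-35119292 and the Cebpb stretch chr2:167688665-167688914, and neither overlaps an annotated exon:
Cebpa: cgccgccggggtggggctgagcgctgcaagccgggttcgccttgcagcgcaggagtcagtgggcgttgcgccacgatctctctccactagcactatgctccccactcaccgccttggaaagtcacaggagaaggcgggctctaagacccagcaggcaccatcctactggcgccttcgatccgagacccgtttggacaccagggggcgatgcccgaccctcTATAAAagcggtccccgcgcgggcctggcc
Cebpb: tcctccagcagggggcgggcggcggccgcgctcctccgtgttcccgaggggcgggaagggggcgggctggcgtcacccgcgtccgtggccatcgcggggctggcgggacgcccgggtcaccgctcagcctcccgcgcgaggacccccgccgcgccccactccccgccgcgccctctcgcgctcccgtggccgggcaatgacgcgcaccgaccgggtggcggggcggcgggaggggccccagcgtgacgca
The Cebpa stretch has a GC content of 66.4% and holds TATAAA 30 bases before the start, a motif found in 12.4% of 32851 promoter stretches of this length. That of Cebpb has a GC content of 81.6%, against a median of 52.4% over all promoters, and held none of the motifs searched on both strands. The other motifs were the palindromic E-box CACGTG, present in 6.0% of promoters, the ETS core GAGGAA, present in 23.3%, the C/EBP element TTGCNNAA, present in 9.6%, the RUNX core TGTGGT, present in 14.0%, and the CCAAT box, present in 33.8%.

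Maf (ENSMUSG00000055435, chr8:115682942-115707794, minus strand) encodes the large MAF protein c-MAF, which drives Il10 in macrophages. Its level was 72.2, 84 and 86.9 FPKM on day 5, 90.8 and 81.3 FPKM on day 14, and 48.9 and 67.6 FPKM on day 28. Both day 28 libraries lay below all 5 earlier ones, and days 5 and 14 overlapped. Means were 81 ± 7.8 (SD, n = 3), 86.1 ± 6.67 and 58.3 ± 13.2 FPKM (SD, n = 2 each). The log2 fold change was -0.56 from day 14 to day 28 (SE 0.17, 95% interval -0.94 to -0.17, adjusted p = 0.238) and -0.46 from day 5 to day 28 (SE 0.16, 95% interval -0.82 to -0.11, adjusted p = 0.0779). The latter was called in 5 of 15 alternative settings and ran from -0.72 to -0.25.

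Bhlhe40 and Bhlhe41, which encode the paralogs DEC1 and DEC2, showed the largest changes of the set from day 5 to day 28. Both are repressors that bind E-boxes. Bhlhe40 (ENSMUSG00000030103) lies on the plus strand at chr6:108660629-108666925 and Bhlhe41 (ENSMUSG00000030256) on the minus strand at chr6:145858243-145865558. Their most alike coding stretches of 60 bases, each within 1 exon (chr6:108661541-108661600, plus strand, and chr6:145864588-145864647, minus strand), are shown to judge whether reads of 1 could count for the other, with capitals at the bases that differ:
Bhlhe40: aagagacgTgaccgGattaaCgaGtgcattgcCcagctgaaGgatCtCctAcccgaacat
Bhlhe41: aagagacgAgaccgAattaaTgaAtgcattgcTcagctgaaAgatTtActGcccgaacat
They share 51 of 60 bases (85.0%), and no 2 stretches of 75 bases in their whole transcripts had fewer than 13 mismatches. Shorter lengths, which reads could have after trimming, were not compared.

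Bhlhe40 was 115, 131 and 119 FPKM on day 5, 148 and 216 FPKM on day 14, and 231 and 209 FPKM on day 28. Every later library lay above every day 5 library, and the higher day 14 library was within the range of day 28. Means were 122 ± 8.03 (SD, n = 3), 182 ± 48.3 and 220 ± 15.6 FPKM (SD, n = 2 each). Bhlhe40 rose 1.83-fold from day 5 to day 28, a log2 fold change of 0.87 (SE 0.16, 95% interval 0.50 to 1.24, adjusted p = 0.00955). By day 14 the estimate was 0.59 (SE 0.16, adjusted p = 0.0707), and from day 14 to day 28 it was 0.28 (95% interval -0.13 to 0.69, adjusted p = 0.57). These steps were 0.84 and 0.03 without day 14 replicate 1, and 0.28 and 0.59 without day 14 replicate 2. Either fit leaves 1 library on day 14.

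Bhlhe41 was less abundant than Bhlhe40 in every library. Its level was 12.1, 13.8 and 10.1 FPKM on day 5, 15.1 and 19.9 FPKM on day 14, and 29.2 and 21.1 FPKM on day 28. The 3 days did not overlap and their means stood in order of time, at 12 ± 1.87 (SD, n = 3), 17.5 ± 3.39 and 25.2 ± 5.73 FPKM (SD, n = 2 each). Bhlhe41 rose 2.12-fold from day 5 to day 28, a log2 fold change of 1.09 (SE 0.19, 95% interval 0.66 to 1.51, adjusted p = 0.00702). The step to day 14 was 0.55 (SE 0.19, adjusted p = 0.119) and the step from there to day 28 was 0.53 (SE 0.21, adjusted p = 0.356), and neither was called. How the rise divided between them rested on single libraries. The steps were 0.74 and 0.34 without day 14 replicate 1 and 0.33 and 0.75 without day 14 replicate 2. The second was 0.27 without day 28 replicate 1. A gene of unclear status on the opposite strand, Gm43909, shares 1280 exonic bases with Bhlhe41, which is 14.84% of its stretches of 75 bases.

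The ratio of Bhlhe40 to Bhlhe41 FPKM was 9.5, 9.45 and 11.8 on day 5, 9.79 and 10.9 on day 14, and 7.9 and 9.89 on day 28. It overlapped between the 3 days, with means of 10.2 ± 1.32 (SD, n = 3), 10.3 ± 0.761 and 8.89 ± 1.4 (SD, n = 2 each). Both rises from day 5 to day 28 were called in 13 of 15 alternative settings, with estimates of 0.79 to 0.94 for Bhlhe40 and 0.83 to 1.3 for Bhlhe41. One of the 2 settings that ended both calls was the fit with a replicate term. The other left out day 28 replicate 1, the deepest library, and gave 0.79 for Bhlhe40 and 0.83 for Bhlhe41. It leaves 1 library on day 28.

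The summed markers of T cells, of NK cells and innate lymphoid cells, and of dendritic cells were also higher on day 28 than on day 5 and are given beside these rises. Cells bearing CD3e had been gated out in the sort. The summed level of 7 T cell markers was 6.89 to 7.66 FPKM on day 5, 18.1 to 20.8 on day 14 and 17.5 to 18.4 on day 28. It came mostly from Cd2 and Cd4, the only 2 of the 7 with over 3 fragments in every library, while the defining Cd3e had 1 to 5 fragments in a library and Cd3g none in 5 of 7. The 6 markers of NK cells and innate lymphoid cells summed to 42.7 to 49 FPKM on day 5, 30.4 to 39 on day 14 and 72.6 to 88.2 on day 28. Nearly all of this was Il7r, the only one of the 6 with over 3 fragments in every library, while the defining Ncr1 had 0 to 7 fragments. The 6 dendritic cell markers, 5 of them with over 3 fragments in every library, summed to 8.18 to 13, 10.8 to 24.9 and 19.8 to 30.4 FPKM on days 5, 14 and 28. The part of these cells in the rises of Cebpa, Bhlhe40 and Bhlhe41 was not tested.

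Markers of 5 other cell types were low beside those of macrophages. On days 5, 14 and 28, those of B cells (1 of 5 with over 3 fragments in every library) summed to 6.51 to 9.3, 6.26 to 10.8 and 4.42 to 5.08 FPKM. Eosinophil markers (2 of 5) summed to 1.79 to 2.23, 1.79 to 5.71 and 3.38 to 3.4 FPKM, and mast cell markers (1 of 5), of which Fcer1a was at 0 throughout, to 0.248 to 0.874, 0.197 to 0.329 and 0.887 to 0.976 FPKM. Schwann cell markers (1 of 5) summed to 10.7 to 11.5, 12.7 to 19.9 and 17.7 to 19.9 FPKM. Nearly all of this was Mbp, at 10.3 to 11.4 FPKM on day 5 and 17.2 to 19.5 on day 28. Endothelial markers (3 of 5) summed to 14.6 to 26.9, 7.35 to 14 and 3.75 to 6.86 FPKM. The eosinophil, mast cell and Schwann cell sums were thus also higher on day 28 than on day 5 without overlap. The part of these cells in the rises of the members was not tested either.

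Id2 (ENSMUSG00000020644, chr12:25093799-25097140, minus strand) was 649, 500 and 461 FPKM on day 5, 542 and 350 FPKM on day 14, and 473 and 384 FPKM on day 28. The 3 days overlapped, and libraries of the same day differed widely. Means were 537 ± 99.5 (SD, n = 3), 446 ± 135 and 429 ± 62.9 FPKM (SD, n = 2 each). The log2 fold change was -0.26 from day 5 to day 14 (SE 0.21, adjusted p = 0.49) and -0.31 from day 5 to day 28 (SE 0.21, 95% interval -0.79 to 0.17, adjusted p = 0.35).

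**Figure D4:**
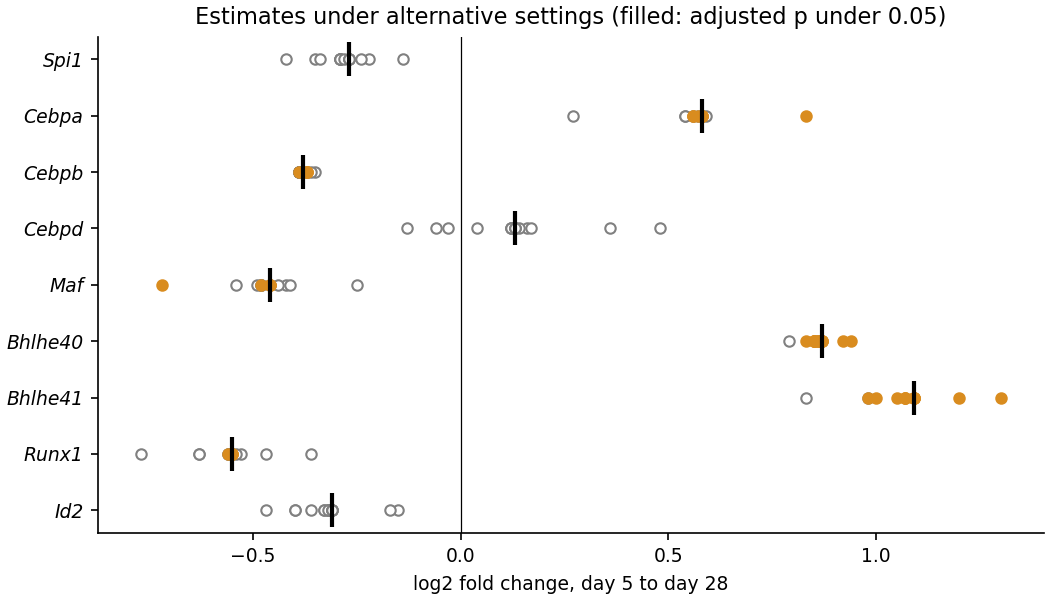
Log2 fold change from day 5 to day 28 (horizontal axis) of the 9 factors in 15 alternative settings (points, filled where the adjusted p was under 0.05), with the reported value as a vertical bar. Bhlhe40 and Bhlhe41 did not go below 0.79 and 0.83, Cebpa ranged from 0.27 to 0.83, and Cebpd lay on both sides of 0.

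Relatives and partners of the members were taken from 7 lists of transcription factors and cofactors, and textbook targets from an eighth. Of the 64 genes tested in them, 17 were called from day 5 to day 28 (6 higher and 11 lower), where 15.2% of all genes were. From day 5 to day 14 it was 7 (3 higher and 4 lower), where 4.78% of all genes were called, and from day 14 to day 28 none, where 0.0622% were. In the last comparison 18 of them had an unadjusted p under 0.05 in edgeR against 12.2% of all genes, and DESeq2 called 5 against 2.58%.

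Of the 10 ETS relatives of PU.1, all tested, 2 fell and none rose from day 5 to day 28, with a median log2 fold change of -0.41 beside 0.033 for all genes. The more abundant was Ets2, a target of mitogen-activated kinases, at 186, 178 and 184 FPKM on day 5, 114 and 98.1 on day 14, and 89.9 and 96.7 on day 28. Its day 5 libraries were far above all later ones, with log2 fold changes of -0.78 to day 14 (SE 0.12, adjusted p = 0.0159) and -0.95 to day 28 (SE 0.12, adjusted p = 0.002). The other was Ets1, below a mean of 5 FPKM on each day. EdgeR called none of the 8 C/EBP relatives and partners and none of the 4 MAF relatives in any comparison. Between days 5 and 28, 3 and 1 of them had an unadjusted p under 0.05, against 31.5% of all genes, and DESeq2, which called none there, called 1 MAF relative from day 5 to day 14. Their medians from day 5 to day 28 were -0.01 and -0.28. Among the 5 RUNX relatives and cofactors Runx2 and Cbfa2t3 rose, both below a mean of 5 FPKM.

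The 7 bHLH relatives were divided, with 2 that rose, 2 that fell and a median of 0.34 from day 5 to day 28. All 4 called genes encode MiT factors, leucine zipper relatives known for lysosomal and myeloid gene control. Tfeb went from 15.9 ± 0.508 FPKM on day 5 (SD, n = 3) to 26.9 ± 5.52 on day 28 (SD, n = 2), a change of 0.77 on the log2 scale (SE 0.16, adjusted p = 0.0155). Mitf went from 23.6 ± 1.14 to 36.7 ± 5.12 FPKM, a change of 0.65 on the log2 scale (SE 0.18, adjusted p = 0.0411). In the opposite direction, Tfec fell by 1.10 on the log2 scale (SE 0.20, adjusted p = 0.00861), from 22.3 ± 4.17 to 10.3 ± 0.354 FPKM, and Tfe3 fell by 0.61 (SE 0.12, adjusted p = 0.0096), from 101 ± 0.287 to 65.1 ± 6.83 FPKM. Tfec was already lower on day 14 (log2 fold change -0.87, adjusted p = 0.0424).

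Of the other ID genes and the E proteins that ID proteins capture, 5 of 6 were tested and 2 fell, with a median of -0.27 from day 5 to day 28. Id3 was 81.8, 66.9 and 64.7 FPKM on day 5, 50.4 and 44.1 on day 14, and 20.5 and 32.7 on day 28. The 3 days did not overlap, and the log2 fold change from day 5 to day 28 was -1.42 (SE 0.20, adjusted p = 0.00332), where that of Id2 was -0.31. The difference between the 2 genes was not tested. The E protein gene Tcf4 fell by 0.69 (SE 0.15, adjusted p = 0.0181), from 16 ± 1.18 to 9.84 ± 1.66 FPKM.

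Among 11 other myeloid regulators that were tested, Myc rose and Klf6 and Nr1h3 fell from day 5 to day 28, with a list median of -0.00. Myc, a driver of growth and proliferation, was 9.55, 8.4 and 7.78 FPKM on day 5, 16.8 and 16.6 on day 14, and 11.6 and 20.2 on day 28. All later libraries exceeded those of day 5, with log2 fold changes of 0.97 to day 14 (SE 0.21, adjusted p = 0.0369) and 0.90 to day 28 (SE 0.21, adjusted p = 0.0215). Nr1h3, the oxysterol receptor LXR-alpha, fell by 0.85 (SE 0.15, adjusted p = 0.00731) and Klf6 fell by 0.49 (SE 0.14, adjusted p = 0.0449). Klf2, which restrains inflammatory activation, was high on day 14 alone, at 161 and 242 FPKM against 99.8 to 123 on day 5 and 91.6 to 126 on day 28. Its log2 fold change from day 5 to day 14 was 0.92 (SE 0.20, adjusted p = 0.0374).

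Textbook targets of the members comprised 16 genes, of which 14 were tested, and 1 rose and 3 fell from day 5 to day 28, with a median of -0.47. Csf2ra, the alpha chain of the GM-CSF receptor, rose from 197 ± 22.8 FPKM (SD, n = 3) to 320 ± 63.8 FPKM (SD, n = 2), a change of 0.71 on the log2 scale (SE 0.18, adjusted p = 0.0286). Fcgr1, the high-affinity IgG receptor and also 1 of the macrophage markers, was 171, 160 and 154 FPKM on day 5, 136 and 76.1 on day 14, and 51.4 and 45 on day 28, with a log2 fold change of -1.73 from day 5 to day 28 (SE 0.22, adjusted p = 0.0021). Its libraries stood in order of time without overlap between the days.

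Csf3r, the G-CSF receptor and also 1 of the neutrophil markers, was 66.6 to 72.7 FPKM on day 5 and 30.2 to 34 FPKM on day 28, a change of -1.09 on the log2 scale (SE 0.18, adjusted p = 0.00581). Arg1, arginase 1, was 998, 656 and 893 FPKM on day 5, 235 and 262 on day 14, and 387 and 271 on day 28. It fell before day 14 (log2 fold change -1.77, SE 0.22, adjusted p = 0.00926) and was 0.41 higher from there to day 28, which was not called (adjusted p = 0.496). Il6 was lower on day 14 than on day 5 (log2 fold change -1.71, SE 0.38, adjusted p = 0.0388), at 5.48 ± 2.13 against 17.9 ± 6.52 FPKM.

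The genes whose time course was most like that of the 3 called members were sought among 7555 genes. All were tested genes with a mean of at least 5 FPKM over the 7 libraries. Likeness was measured by the mean absolute difference of centred log2(FPKM + 1) values over the 7 libraries. The most alike genes for Bhlhe40 were Rnf113a2 (0.049), Plp2 (0.057) and Isyna1 (0.061). Those for Bhlhe41 were Cd52 (0.081), Rhoc (0.083) and Esd (0.083). The 2 paralogs differed from each other by 0.118, which put Bhlhe40 at rank 9 for Bhlhe41 and Bhlhe41 at rank 52 for Bhlhe40. Cebpa was most like Scap (0.068), Thop1 (0.075) and Cby1 (0.083), with Bhlhe40 at rank 568 (0.190). The libraries share their depth and scaling across genes, so these values are descriptive.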

How the data were processed

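PolyA+ RNA of sorted macrophages was sequenced as single-end reads, which the authors trimmed (cutadapt 1.8), aligned to the UCSC mm10 genome guided by an annotation (TopHat2 2.0.13) and quantified per gene (Cuffdiff 2.2.1). How multi-mapping reads and strand were treated is not given in the sources used here. Per gene and library the authors deposited expected counts (estimated fragments, 1.01% of them not whole), a scaled signal (the same fragments times 1 factor per library) and FPKM values. Library totals were 18027190 to 35247116 fragments.

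After rounding, the expected counts entered edgeR 4.0.16 under R 4.3.3 (TMM, filterByExpr, quasi-likelihood F test, time point as the only factor, Benjamini-Hochberg adjustment over 12858 genes). All 7 libraries entered 1 fit, which left 4 residual degrees of freedom, and the steps were tested on simulated data. FPKM served for levels, ratios and likeness, with a pseudocount of 1 on the log2 scale. Genes with 8 failed quantification values in all were kept. The members and lists were chosen with earlier results of these data known. Genes named were all 9 members, up to 5 called genes per list with a mean of at least 5 FPKM on 1 day, taken by the size of their change, and the 3 genes most like each called member. Where a count of 2 in a list included genes under 5 FPKM, these were named after their values were seen. Replicate numbers were taken from the labels. P-values measure the spread between these samples, which may be technical. Alternatives were DESeq2 1.42.0, limma 3.58.1 on log2(FPKM + 1) and log2(FPKM + 0.1), RLE and Cuffdiff scaling, no expression filter, fits on 2 time points, the replicate block, leaving out each library, and an adjusted p under 0.01. Coordinates are those of GENCODE on GRCm38. Promoters came from RefSeq, which held an entry for 5 members, and Sfpi1 was matched to Spi1 as a RefSeq synonym of 1 gene.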

Additional observations from a re-analysis of the deposited data

How the results depend on the processing

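Of 405 recomputed log2 fold changes of the members, 355 kept their direction and their side of the threshold, 24 passed it, 11 lost it and 15 changed sign. From day 5 to day 14 no member was called (4.78% of all genes), while DESeq2 called 2 (10.6%) and the fit without an expression filter 4 (8.26%). Without any 1 of the day 5 libraries 0 were called, where 0.407% to 0.83% of all genes were. Without day 14 replicate 1 the estimates were 0.69 for Cebpa and 0.84 for Bhlhe40, and without day 14 replicate 2 they were 0.43 and 0.28. From day 5 to day 28, 3 members were called (15.2% of all genes). It was 6 with DESeq2 (19.3%), 5 without an expression filter (14.3%) and 6 in the fit on 2 time points (22.1%). Without any 1 of the day 5 libraries 2 were called, where 6.42% to 7.57% of all genes were. The Cebpa estimate was 0.83 without day 28 replicate 1 and 0.27 without day 28 replicate 2. In the test for any difference, 2 members were called (11.4% of all genes). It was 6 with DESeq2 (19.3%), 6 without the filter (14.5%) and 0 at an adjusted p under 0.01, where the share was not computed. Without any 1 of the day 5 libraries 0 to 1 were called, where 3.27% to 3.55% of all genes were. Of the companion genes, 7 were called from day 5 to day 14, against 16 with DESeq2, 1 at an adjusted p under 0.01 and 1 to 21 without 1 library, the lowest without any of the day 5 libraries and the highest without day 14 replicate 1. From day 14 to day 28 none was called, against 5 with DESeq2 and 0 to 12 without 1 library, the highest without day 14 replicate 2. From day 5 to day 28, 17 were called (15.2% of all genes), against 9 at an adjusted p under 0.01 (4.64%). Without any 1 of the day 5 libraries 10 to 12 were called, where 6.42% to 7.57% of all genes were. The difference in the Cebpa share of 5.83 percentage points became 9.07 points on raw fragments, which carry transcript length. For the other counts the cause was not tested. Fits without a day 14 or day 28 library leave 1 library in its group, which then has no spread of its own. They assume that it varies like the other groups, so their counts of called genes are not listed here. Their calls remain part of the tallies over 15 alternative settings and of the 405 values above.

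Values that changed sign were all uncalled. When 1 library was left out, the log2 fold change from day 5 to day 14 ran from -0.08 to 0.05 for Spi1 and from -0.60 to 0.02 for Id2. That of days 14 to 28 ran from -0.29 to 0.26 for Cebpa, from -0.35 to 0.10 for Runx1 and from -0.33 to 0.29 for Id2, and that of days 5 to 28 from -0.13 to 0.48 for Cebpd. Cebpa from day 14 to day 28 was -0.01 with limma at either pseudocount.

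Libraries of different days came from different mice and share only a replicate number. Deviations of same-numbered libraries correlated at 0.129 for days 5 and 14, -0.054 for days 14 and 28 and 0.063 for days 5 and 28, over 7613 genes with 2 shared numbers each, so the numbers were not taken to pair the samples. With the replicate number as a block, which left 2 residual degrees of freedom, 0 members were called from day 5 to day 28 and 0 in the test for any difference, against 5.72% and 2.29% of all genes. Under the block Bhlhe40 was 0.86 (adjusted p = 0.05001), Bhlhe41 0.98 (adjusted p = 0.0503), Cebpa 0.56 (adjusted p = 0.1) and Cebpd -0.03. From day 5 to days 14 and 28, 0 and 11 companion genes were called under the block, against 0.0467% and 5.72% of all genes.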
